A study of Mus musculus with 8 samples.

Results

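The clustered protocadherin genes of the mouse were described here in Sono-seq libraries of the hippocampus. They lie side by side on chromosome 18, and their window was set at 37.08 to 38.01 Mb (mm9), a stretch of 930 kb that holds the alpha, beta and gamma clusters in this order. The window was divided into 3 equal lengths of 310 kb, called the alpha, beta and gamma segments after the clusters they should hold, although the exact mm9 bounds of the clusters could not be checked here, and every region of the deposited count table and every listed peak that overlapped it was taken. This gave 7 of the 11304 regions of the count table and 167 to 442 peaks per library, of 379249 to 983420 listed. All 58 named genes (14 alpha, 22 beta and 22 gamma, Pcdhgb8 among them as a transcribed pseudogene) were found in a RefSeq gene table of build GRCm38.p6, where the clusters stood in the same order. That table belongs to another build than the files, so none of the 58 genes was given a peak or a read level of its own, and regions are named by segment and by position.

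Sono-seq breaks fixed chromatin with ultrasound and sequences the fragments with no immunoprecipitation, so that open chromatin such as that of active promoters, which shears readily, is over-represented. One library was made from each of 8 adult male C57BL/6J mice, aged 2 months. Mice of the conditioned group (n = 4) were handled for 3 days and then received contextual fear conditioning, a single foot shock (2 s, 1.5 mA) in a chamber, and the hippocampus was taken 30 min later. Control mice (n = 4) were handled in the same way, were not conditioned, and were killed at the matching hour. Tissue was the whole hippocampus, so fewer cells of a type and less open chromatin per cell cannot be told apart, and the libraries hold no RNA against which markers of the tissue could be checked.

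Clustered protocadherins are cadherin-like adhesion proteins of the neuronal surface. In the alpha and gamma clusters each variable first exon has its own promoter and is spliced to constant exons at the end of its cluster, whereas the beta genes have single exons and no constant part. A neuron chooses a few of the variable promoters at random, which gives it a surface identity used in self-recognition, while the C-type genes at the downstream ends (Pcdhac1 and Pcdhac2 in alpha, Pcdhgc3, Pcdhgc4 and Pcdhgc5 in gamma) are used more broadly. Binding of CTCF and cohesin at the promoters and at distal enhancers is known to take part in this choice.

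The libraries differed widely in what they could show. Total counts over all regions ran from 36786183 to 83233550 per library, the 50 highest regions of the genome took 82.5% to 96.6% of them, and the median count of a region lay between 115 and 1069. In the 7 protocadherin regions single counts ran from 25 to 1938. Control replicates 1 and 3 stood apart, with TMM scaling factors of 0.332 and 0.509 against 1.03 to 2.01 in the other 6 libraries, so that their counts were scaled up most. A strong peak, here one with the authors' z score of at least 30, was present in 24.3% and 25.5% of all 11304 regions in these libraries and in 58.6% to 97.7% in the others. Results for the 7 regions are therefore given with and without them.

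Listed regions were found at 1 place in the alpha segment and at 6 in the gamma segment, and none lay in the beta segment. The alpha region lay on chromosome 18 at 37303263 to 37304093 (mm9), 830 bp in length. Gamma regions 1 to 6 lay at 37851037 to 37851481, 37881513 to 37882181, 37892137 to 37892837, 37903281 to 37903937, 37922813 to 37923587 and 37972322 to 37973513. Stretches of 30.0, 9.96, 10.4, 18.9 and 48.7 kb separated the 6 gamma regions, and 547 kb lay between the alpha region and gamma region 1. The window held 7.53 listed regions per Mb and the rest of chromosome 18 held 3.97 per Mb (345 regions). A region entered the authors' list through strong peaks in at least 4 libraries, so its strong peaks describe the choice and were not tested.

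At these 7 places all 8 libraries had a listed peak, and the highest peaks of the libraries fell close together. Closeness of the strong peaks is partly set by the choice, since a region was listed where those of at least 4 libraries met. The sharing of listed peaks is partly set in the same way, and neither was compared with other listed regions. The middles of the highest peaks lay within 155 bp of each other in the alpha region and within 76, 130, 121, 135, 295 and 186 bp in gamma regions 1 to 6. In gamma region 6 the highest peaks were wide, with a median of 675 bp, whereas in gamma region 1 each of the 8 was a single 50 bp step. The authors' number of carriers was 6 in the alpha region and in gamma region 3, 5 in gamma region 4, and 4 in the other 4 regions. A strong peak was found in 4, 5, 0 and 1 of the 7 regions in control replicates 1 to 4, and the conditioned libraries, in the same order, had one in 7, 2, 7 and 7. The 3 libraries with all 7 were those with a strong peak in 92.9% to 97.7% of all regions, and control replicate 3, with none of the 7, was among the 2 lowest there.

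The alpha region had the highest mean level of the 7, above that of 82.6% of the table's regions, but this rested on control replicate 3. Without it the mean fell from 11.9 to 7.03 CPM, above 53.4% of regions and below gamma region 3 (9.61 CPM), which also had more reads in all (5379 against 5209). Its TMM-scaled read counts, in CPM (counts per 1000000 of the scaled library size), were 6.15, 5.68, 46.1 and 5.79 in controls 1 to 4 and 8.07, 5.29, 11.5 and 6.71 in conditioned replicates 1 to 4. Control replicate 3 stood far above the other 7 libraries, and the groups overlapped. Control libraries had a mean of 15.9 ± 20.1 CPM and conditioned libraries one of 7.89 ± 2.66 CPM (SD, n = 4 each), which gave a log2 fold change of conditioned over control of -1.01 (SE 0.64; adjusted p = 0.738, edgeR quasi-likelihood test, Benjamini-Hochberg over 11304 regions). Without control replicate 3 it was 0.40. The highest z score of the region in that library was 14.1, the lowest of all 8, although its 864 reads were exceeded only by the 1330 and 1124 reads of conditioned replicates 3 and 4, whose highest z scores were 108 and 86.7. The remaining z scores were 17.3, 48.2 and 43.0 in control replicates 1, 2 and 4 and 61.9 and 37.8 in conditioned replicates 1 and 2.

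Among the gamma regions, gamma region 3 had the highest mean, above that of 70.9% of all regions. Control replicates 1 to 4 had 20.1, 3.29, 8.65 and 3.79 CPM there and conditioned replicates 1 to 4 had 13.0, 7.63, 7.94 and 11.6 CPM. Control replicate 1 was the highest of all libraries and control replicates 2 and 4 the lowest, so that the controls spanned the conditioned values. The means were 8.94 ± 7.79 and 10.04 ± 2.68 CPM in control and conditioned libraries (SD, n = 4 each), with a log2 fold change of 0.17 (SE 0.54; adjusted p = 0.965, edgeR). Its highest z scores were 41.7, 31.6, 25.1 and 26.6 in controls 1 to 4 and 79.2, 55.1, 68.3 and 126 in conditioned replicates 1 to 4. On this scale the groups did not overlap, as in 6.26% of all regions, and they overlapped in the other 6 regions of the window. The z scores come from each library's own peak list, their scaling is not stated, and the region's place on the list rests on them.

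The largest fold among the gamma regions was that of gamma region 6, the last before the downstream end of the window. Its values were 17.5, 1.19, 3.31 and 2.22 CPM in controls 1 to 4 and 3.02, 1.43, 2.60 and 2.08 CPM in conditioned replicates 1 to 4. The conditioned libraries lay between the highest and the lowest control, and control replicate 1 alone was above 4 CPM. The means were 6.04 ± 7.66 and 2.29 ± 0.687 CPM (SD, n = 4 each), and the log2 fold change was -1.39 (SE 0.72; adjusted p = 0.661, edgeR). Without control replicate 1 it was 0.034.

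Gamma region 2 showed the same single library. It had 11.7, 2.28, 1.33 and 1.19 CPM in controls 1 to 4 and 3.84, 1.68, 3.81 and 2.96 CPM in conditioned replicates 1 to 4, with a log2 fold change of -0.42 (SE 0.69; adjusted p = 0.931, edgeR). Without control replicate 1 the value was 0.92. Its mean over all libraries, 3.60 CPM, was the lowest of the 7, though gamma region 6 had fewer reads in all (1645 against 1886). The count of gamma region 2 in control replicate 3 was 25.

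In gamma region 1 the values were 8.25, 5.67, 3.10 and 1.46 CPM in controls 1 to 4 and 4.97, 2.77, 4.09 and 5.18 CPM in conditioned replicates 1 to 4, a log2 fold change of -0.12 (SE 0.55; adjusted p = 0.980, edgeR). In gamma region 4 they were 14.8, 3.57, 6.46 and 3.16 CPM in control and 9.76, 2.20, 4.03 and 4.15 CPM in conditioned replicates 1 to 4, a log2 fold change of -0.47 (SE 0.59; adjusted p = 0.903, edgeR). Replicate 1 was the highest library of both groups in gamma region 4, while the other conditioned libraries lay between 2.20 and 4.15 CPM and the other controls between 3.16 and 6.46 CPM. In gamma region 5 control replicates 1 and 2 had 9.30 and 8.93 CPM and control replicates 3 and 4 had 1.98 and 1.97 CPM, and the conditioned libraries lay between 4.50 and 11.7 CPM (log2 fold change 0.47, SE 0.58; adjusted p = 0.899, edgeR). There the controls split into a high and a low pair, with 3 of the 4 conditioned values between them. Its log2 fold change was 0.82 without control replicate 1, 0.80 without control replicate 2, 0.16 without control replicate 3, 0.15 without control replicate 4 and 0.19 without conditioned replicate 2.

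**Figure D1:**
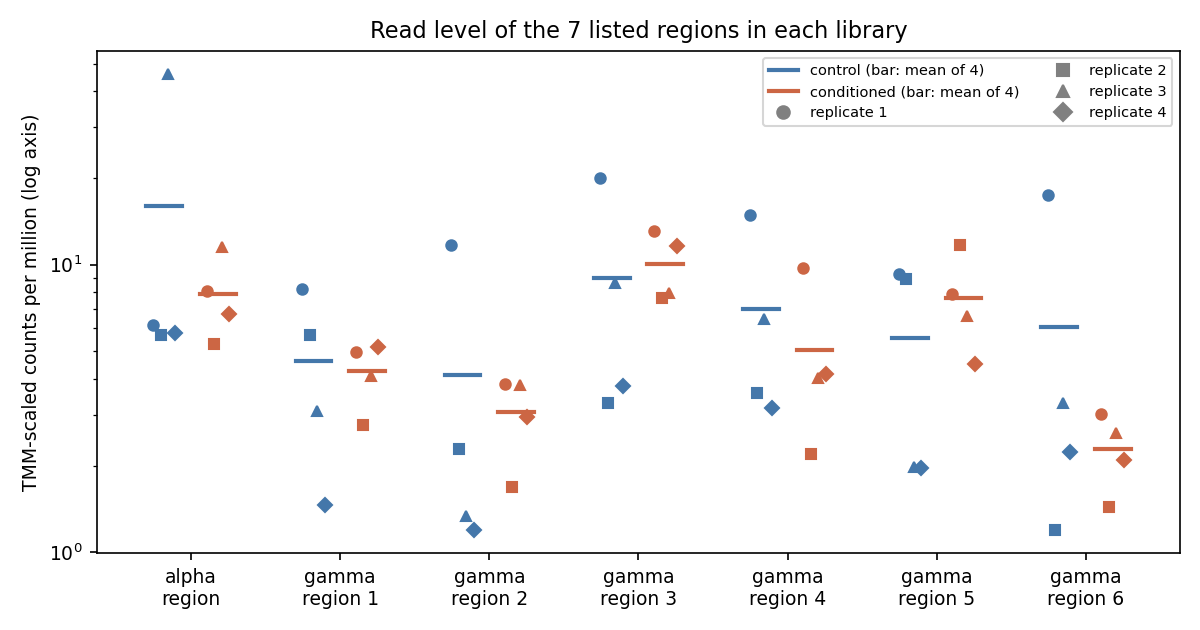
TMM-scaled CPM (log axis) of the alpha region and gamma regions 1 to 6 in each of the 8 libraries, with marker shapes for the replicate and bars for the mean of 4. Control replicate 3 stands alone at 46.1 CPM in the alpha region, and control replicate 1 is the highest library in gamma regions 1 to 4 and 6, with 17.5 CPM in gamma region 6.

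Over the 7 regions no difference between the groups passed the test. At an adjusted p below 0.05, edgeR called 0 of 7, and 0% of all 11304 regions tested. At an unadjusted p below 0.05 it called 0 of 7, against 7.79% of all regions, and the groups did not overlap in 0 of 7, against 2.4% of all regions. DESeq2's Wald test called 0 of the 6 regions for which it gave a p, all but the alpha region. It called 0.359% (40) of the 11138 regions of the whole table with an adjusted p. The log2 fold change was below 0 in 5 of 7 regions, against 53.6% of all, and its median was -0.42 over the 7 and -0.05 over all. With median SEs of 0.50 over all regions, and 0.54 or more in each of the 7, a log2 fold change of 1 lay within 2 SEs of 0.

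The direction depended on the libraries kept and on the fit. Without control replicate 3 only the alpha region turned, and the gamma regions stayed at 4 lower and 2 higher. With the replicate block, which keeps all libraries, 3 of the 7 regions were lower and 4 higher. Without conditioned replicate 2, 3 gamma regions were lower and 3 higher. All 6 gamma regions had a fold change above 0 without control replicate 1, and all 7 regions were above 0 without control replicates 1 and 3, a choice made after seeing the data. Against control replicates 2 and 4 alone the log2 fold changes ran from 0.24 in gamma region 1 to 1.49 in gamma region 3 (adjusted p = 0.559 for the latter, edgeR), with a median of 0.48 over the 7 regions and 0.02 over all regions. Scaling by region totals alone also put all 7 above 0, with a median of 0.85, but moved the median of all regions to 0.75. As a share of all reads in the table, the 7 regions together held 0.00291%, 0.00446%, 0.00361% and 0.00202% in the controls (replicates 1 to 4), and the conditioned libraries gave 0.00540%, 0.00391%, 0.00624% and 0.00748%. The exact binomial 95% bounds (Clopper-Pearson) of these shares lay at most 0.000207 percentage points away, from counting error alone. As a share of the reads outside the table's 50 highest regions, the order of the means turned, with 0.0868%, 0.0346%, 0.0660% and 0.0205% in the controls and 0.0586%, 0.0320%, 0.0465% and 0.0426% in the conditioned libraries. The means were 0.0520% ± 0.0300 and 0.0449% ± 0.0110 (SD, n = 4 each), and the groups overlapped on both scales.

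**Figure D2:**
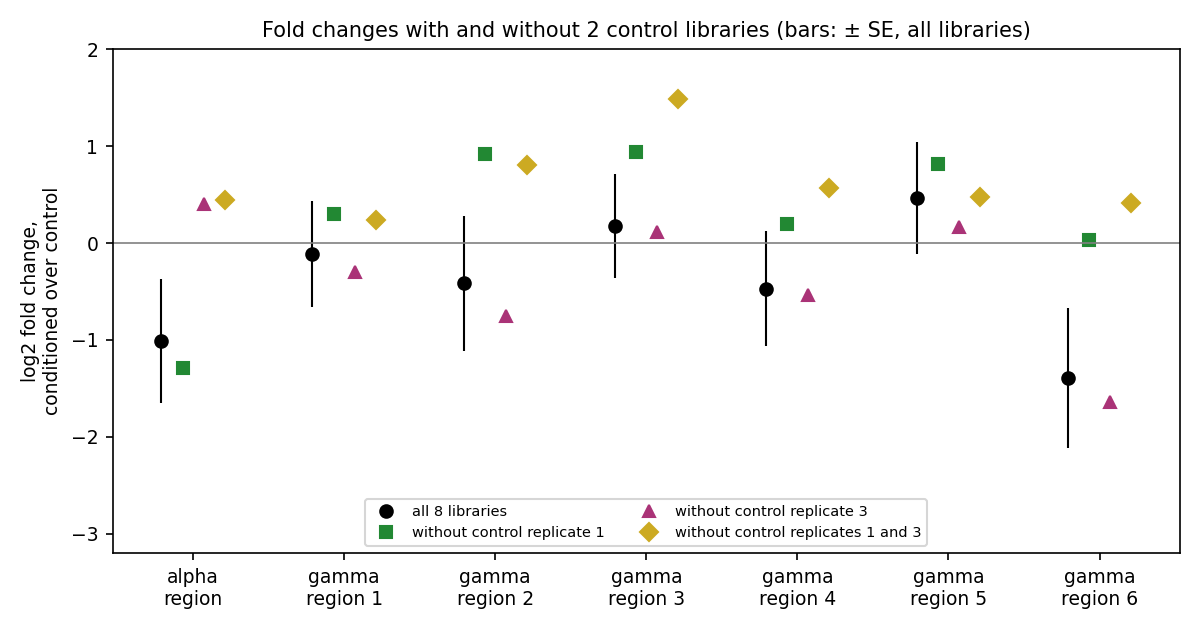
Log2 fold changes of conditioned over control libraries for the 7 regions with all libraries (black, bars ± SE) and without control replicate 1, control replicate 3, or both. The black points run from -1.39 to 0.47, and the yellow points, without both libraries, all lie above 0.

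Strong peaks were also found outside the listed regions, in all 3 segments. The 8 libraries together had 146 strong peaks in the window, of which 33 lay in the 7 listed regions and 113 elsewhere. The beta segment held 49 of the 113, the gamma segment 37 and the alpha segment 27. Of the strong peaks elsewhere 85.8% were a single 50 bp step, against 39.4% of those in the listed regions. The median z scores of the 2 kinds were 41.6 and 47.1.

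Few of these places were shared between libraries. The list took places with strong peaks in at least 4 libraries, so low sharing outside it follows from the choice. When the window was divided into 930 bins of 1 kb, 114 (12.3%) held a strong peak of at least 1 library, against 9.92% elsewhere on chromosome 18. In 87 of the 114 the peak came from 1 library alone. Another 13 bins were carried by 2 libraries and 7 by 3. The 7 bins carried by 4 or more (0.753%, against 0.458% elsewhere) were those of the listed regions, 1 in the alpha and 6 in the gamma segment. In the beta segment 38 of 46 bins with a strong peak were carried by 1 library, and none by more than 3. Between the alpha region and gamma region 1, a stretch of 547 kb that includes the whole beta segment, no bin had a strong peak in 4 or more libraries. This restates the list.

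**Figure D3:**
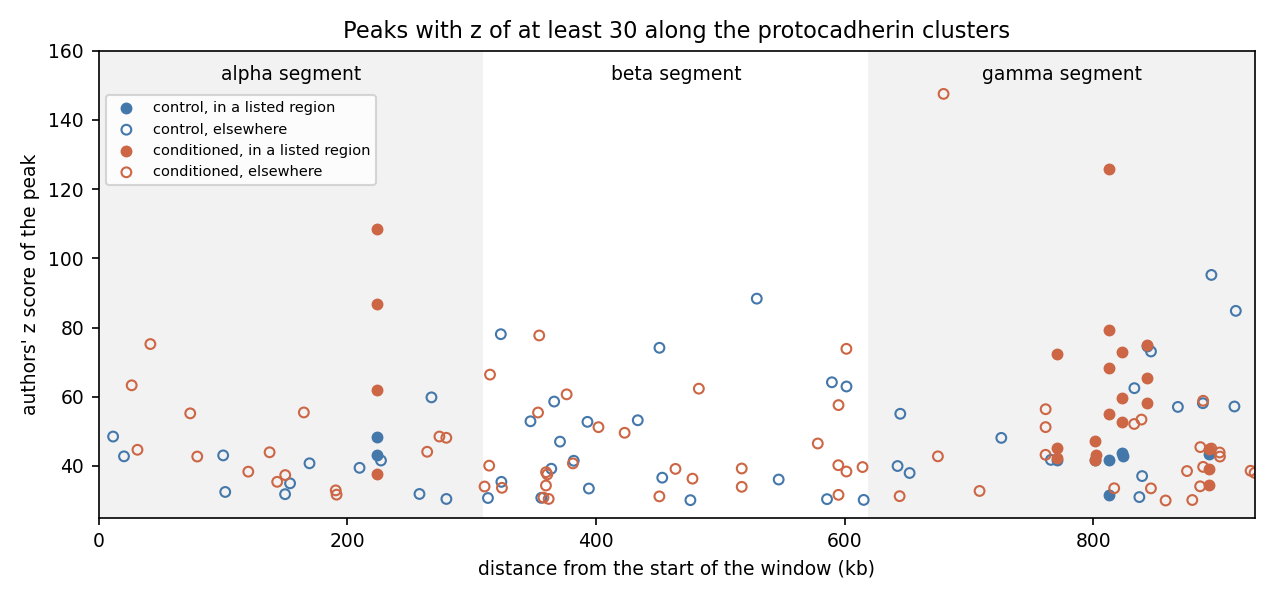
The authors' z score of each of the 146 peaks with z of at least 30, against distance from the start of the window (kb), with filled points for peaks in the 7 listed regions and open points for the others. Filled points stack at 1 place in the alpha segment and at 6 places in the gamma segment, whereas open points are scattered over the window, the beta segment included. The stacks restate the choice of the list.

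The most shared places of each segment were as follows. In the alpha segment the bin of the alpha region (37303000 to 37303999) was carried by 6 libraries at z of at least 30, and the next 2 bins, at 37359000 to 37359999 and 37360000 to 37360999, by 2 each. Those 2 are neighbours, and the same strong peaks of control replicate 1 (z of 30.5) and conditioned replicate 4 (48.1) span both.

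In the beta segment no bin was carried by more than 3 libraries, and 4 bins were carried by 3, with carriers that differed. At 37681000 to 37681999 they were control replicate 3 (63.0) and conditioned replicates 3 (73.8) and 4 (38.4). At 37675000 to 37675999 they were conditioned replicates 1, 2 and 4 (40.2, 57.6 and 31.6), and at 37403000 to 37403999 control replicates 2 and 4 (78.1 and 35.4) and conditioned replicate 1 (33.7). At 37440000 to 37440999, the lowest of the 4 by mean z score, they were conditioned replicates 1, 3 and 4 (38.2, 37.6 and 34.3). The other libraries had weaker listed peaks in each of these 4 bins, with z scores down to 6.20. In the gamma segment the bins of gamma regions 3 and 4 were carried by 6 and 5 libraries. Those of gamma regions 1, 2, 5 and 6 tied at 4, with the highest mean z score in gamma region 5.

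Counting every listed peak, most of which were weak, the gamma segment was also the fullest. The gamma segment held 35.2%, 37.2%, 39.8% and 32.7% of the window's peaks in controls 1 to 4 and 37.4%, 41.3%, 37.1% and 34.2% in conditioned replicates 1 to 4. The alpha segment held 31.1% ± 3.01, the beta segment 32.1% ± 2.80 and the gamma segment 36.9% ± 2.82 (SD, n = 8 libraries). In all libraries but control replicate 4 the gamma share was above the beta share.

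Within libraries, the beta share was 4.79 percentage points below the gamma share (SD 4.74; exact sign-flip permutation p = 0.0156, two-sided, adjusted by Benjamini-Hochberg over 4 comparisons of position to 0.0313). The alpha share was 5.80 points below the gamma share (SD 5.12; lower in 6 of 8 libraries; exact sign-flip permutation p = 0.0313, adjusted 0.0417). The alpha and beta shares differed by -1.02 points (SD 5.08; exact p = 0.602), which was less than the spread between libraries. Both calls were lost, at adjusted exact p of 0.0625 for beta and 0.0833 for alpha, when any 1 library other than control replicate 4 or conditioned replicate 4 was left out, with differences of -5.21 to -3.33 and -6.08 to -4.50 points in those runs. The gamma excess also depended on the measure. By covered length the beta segment exceeded the gamma segment by 1.94 points (exact p = 0.594). Among strong peaks alone the difference of beta from gamma was -7.51 points (exact p = 0.461). These tests are over libraries of 1 genome, and say only that the libraries shared the pattern.

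**Figure D4:**
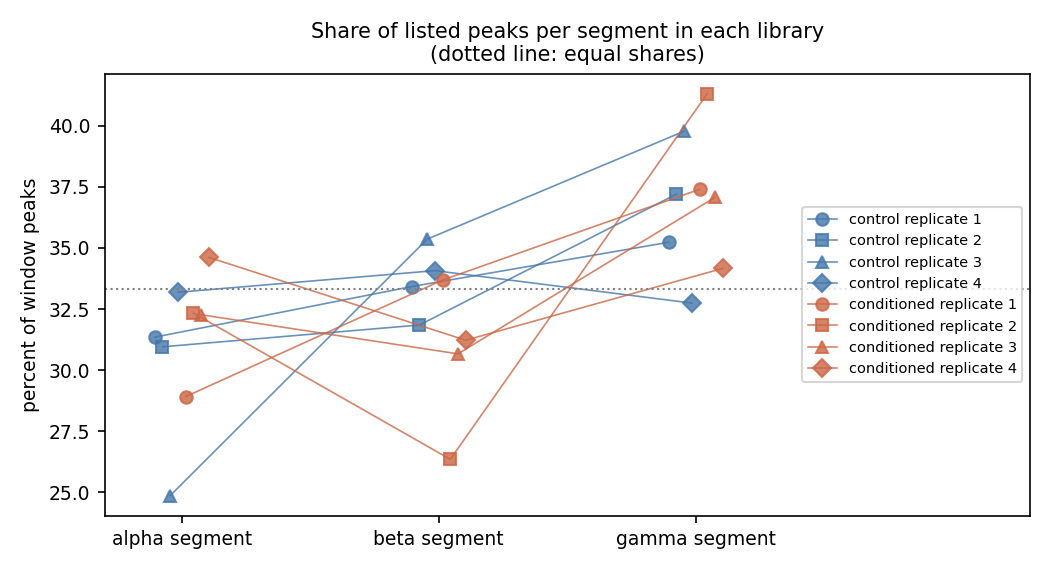
Percent of each library's window peaks that lie in the alpha, beta and gamma segments, with 1 line per library and a dotted line at equal shares. The gamma share runs from 32.7% to 41.3% and is above the beta share in every library but control replicate 4.

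At a finer scale the peaks were densest near the downstream end of the gamma segment. Of the 93 steps of 10 kb, the fullest, from 37920000 to 37929999, held 2.15% ± 0.584 of a library's window peaks (SD, n = 8), and its neighbour upstream 2.03% ± 0.435. These 2 steps include gamma region 5. Dense steps were also found in the alpha segment, at 37380000 to 37389999 with 2.03% ± 0.596 and at 37270000 to 37279999 with 2.02% ± 0.541. The emptiest step was the one from 37370000 to 37379999, directly before a dense one, with 0.182% ± 0.165. The profiles of 2 libraries correlated over the 93 steps at a median Pearson's r of 0.546 within control, 0.555 within conditioned and 0.540 between the groups. Steps are not independent replicates and the libraries share mappability, so these values are a description.

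**Figure D5:**
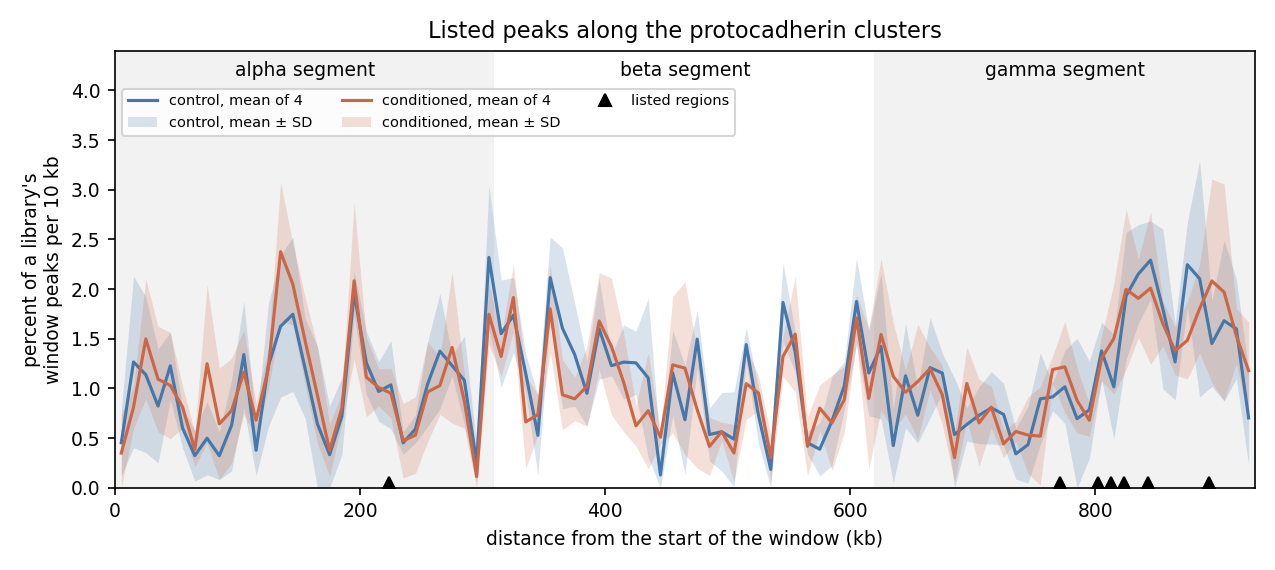
Percent of a library's window peaks in steps of 10 kb against distance from the start of the window (kb), as the mean of 4 control and 4 conditioned libraries with bands of ± SD, and triangles at the 7 listed regions. The lines of both groups follow the same hills, and the longest dense stretch lies in the gamma segment between about 820 and 920 kb.

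Recurrence of listed peaks was also set beside that on the rest of the chromosome. At least 1 library had a peak in 75.6% of the 930 bins of 1 kb, against 69.2% of the 86841 other bins of chromosome 18, and at least 4 libraries had one in 36.7% against 30.4%. A listed peak in all 8 libraries was found in 44 bins (4.73%), against 4.91% elsewhere. By segment, 11 alpha, 12 beta and 21 gamma bins were shared by all 8. With peaks at z of at least 10, 12 bins were shared by all, 9 of them in the gamma segment, or 1.29% of the window against 0.669% elsewhere on the chromosome. Bins of the alpha region and of gamma regions 1, 3, 4, 5 and 6 were among the 12, so this share is not independent of the list. No bin was shared by all 8 at z of at least 30, and elsewhere on the chromosome only 18 bins (0.0207%) were.

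Measured against length, the window held somewhat more peaks than the chromosome as a whole. It makes up 1.06% of the listed length of chromosome 18 and held 1.08% to 1.28% of the chromosome's peaks, above its share of length in 8 of 8 libraries. The excess was 0.161 percentage points (SD 0.0658; exact sign-flip permutation p = 0.0078, the smallest these 8 libraries allow; Benjamini-Hochberg value 0.0313). Without 1 library other than control replicate 4 or conditioned replicate 4 it was 0.152 to 0.180 points with an adjusted exact p of 0.0625. With 7 libraries the smallest exact p is higher. As for the segments, this test is over libraries of 1 genome and says only that they shared the pattern. Against the flanking stretches of 930 kb on both sides the window showed no such excess (-0.352 points from an equal share; exact p = 0.461). The median z score of its peaks was 7.54 to 10.3 per library, and that of other chromosome 18 peaks was 7.83 to 10.6.

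Between conditioned and control libraries none of the 4 tested differences in these measures passed the threshold. The window held 0.0429%, 0.0456%, 0.0396% and 0.0439% of all listed peaks in controls 1 to 4 and 0.0462%, 0.0440%, 0.0464% and 0.0449% in conditioned replicates 1 to 4. Control replicate 3 was the lowest and the groups overlapped. The difference of 0.00245 percentage points (SE 0.00138) had an exact permutation p of 0.114 (two-sided, and 0.229 after Benjamini-Hochberg adjustment over 4 group comparisons).

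No difference in the shares of the segments passed either, though that of the beta segment (-3.19 points, SE 1.69) was larger than each group's SD. In the beta segment lay 30.5% ± 3.05 of the window's peaks after conditioning and 33.7% ± 1.46 in controls (SD, n = 4 each; exact permutation p = 0.0857, adjusted 0.229). The alpha shares were 32.0% ± 2.35 and 30.1% ± 3.62 (exact permutation p = 0.429, adjusted 0.571; n = 4 each), and the gamma shares 37.5% ± 2.94 and 36.2% ± 2.98 (exact permutation p = 0.571, adjusted 0.571; n = 4 each). With 4 libraries against 4 the smallest p of these tests is 0.0286. Strong peaks numbered 11, 24, 6 and 16 in the window in controls 1 to 4 and 17, 12, 33 and 27 in conditioned replicates 1 to 4, with overlapping groups. The share of strong peaks among the window's peaks ran from 2.85% to 7.55%, and from 1.47% to 7.76% among other chromosome 18 peaks, with control replicate 1 lowest in both.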

How the data were processed

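Sono-seq libraries of 8 mice were analysed. The genome build is mm9 and the tool named is Bowtie2, per the submitters' processing notes. How peaks were called, how reads were counted and whether duplicates or reads with several placements were removed is not given in the sources used here; protocadherin exons resemble each other, and such filters could change their counts. The authors deposited raw read counts per region, without normalisation, in 1 table (0 columns left unused), a region list with the number of carriers as another measure, and 1 peak list per sample with a z score per peak, of unstated scaling and with a lowest value of 5. Positions are as deposited and may differ by 1 from a genome browser; a peak was read as its start to its end plus 50 bp.

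Counts of all 11304 regions were tested in R 4.3.3 with edgeR 4.0.16 (TMM, filterByExpr, which removed 0 regions, quasi-likelihood test, Benjamini-Hochberg) and, as an alternative, DESeq2 1.42.0. SEs are the fold change over the square root of F. Shares of peaks were computed in Python 3.11.15 and tested by exact permutation of groups (70 arrangements) or sign flips within libraries (256 patterns). The edgeR test, the permutation of groups and the sign flips were checked on simulated data, and DESeq2's test was not. Alternatives were other scalings and filters, stricter peaks, covered length, a replicate block and each sample left out. All listed regions of the window are named, with the 3 bins per segment carried by the most libraries at z of at least 30 (ties by the mean of the highest z scores) and the bins tied with them. The members, lists and rules were chosen with earlier results of these data known. Animals are separate, so p-values of the group comparisons measure the spread between animals and library preparations. Those of the position comparisons are over libraries of 1 genome and say only that the libraries shared the pattern.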

Additional observations from a re-analysis of the deposited data

Results flagged for a closer look

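Of the values by group, 3 stood far from the other 3 libraries of their group: the gap to the nearest library took up more of the group's range than Dixon's 95% critical value allows. In all, 24 groups of 4 values were looked at, of which chance flags about 1 in 20, and the values share the same libraries. In the alpha region control replicate 3 had 46.1 CPM, and its group otherwise 5.68 to 6.15. Control replicate 1 had 11.7 CPM in gamma region 2, against 1.19 to 2.28, and 17.5 CPM in gamma region 6, against 1.19 to 3.31. These 2 libraries also had the lowest TMM factors (0.332 and 0.509), and the part of the scaling in these values was not tested.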

How the results depend on the processing

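The number of protocadherin regions called stayed at 0 in each fit tried, each run without 1 library and an adjusted p below 0.1 included. Over all regions, DESeq2's Wald test called 40, region totals alone 6 and the other fits 0. Log2 fold changes of single regions turned direction as follows, with no adjusted p below 0.05, and beyond the libraries left out the cause was not tested. With region totals alone they were 0.22 in the alpha region and 0.85, 0.97, 0.73 and 0.19 in gamma regions 1, 2, 4 and 6. Without control replicate 1 gamma regions 1, 2, 4 and 6 had 0.30, 0.92, 0.19 and 0.034; without control replicate 2 gamma regions 1 and 3 had 0.0013 and -0.11; without control replicate 3 the alpha region had 0.40; without control replicate 4 gamma region 3 had -0.12; and without conditioned replicate 2 gamma region 1 had 0.041. Over the runs without 1 library the fold changes ran from -1.31 to 0.40 in the alpha region and from -0.45 to 0.30, -0.77 to 0.92, -0.12 to 0.94, -1.01 to 0.19, 0.15 to 0.82 and -1.74 to 0.034 in gamma regions 1 to 6. Without control replicates 1 and 3, chosen after seeing the data, the alpha region had 0.45 and gamma regions 1, 2, 4 and 6 had 0.24, 0.80, 0.57 and 0.41.

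With the replicate block, gamma regions 1 and 2 had 0.085 and 0.20, and the smallest adjusted p among the 7 regions was 0.949; the exact p of the 4 group differences in peak shares was 0.25 to 0.50, where 4 pairs allow 0.125. Deviations of same-numbered libraries correlated at 0.16, 0.048, -0.063 and 0.27 for replicates 1 to 4. Those of differently numbered libraries correlated at -0.34 to 0.28, a range that includes these values, so the numbers were not taken as pairs.

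Peak shares between groups changed sign for the window at z of at least 30 (-0.00208), for the gamma segment at z of at least 10 (-1.16) and by covered length (-3.87), and for the beta segment by covered length (2.42). Without 1 library they ran from 0.00133 to 0.00331 for the window, 0.204 to 2.99 for alpha, -4.26 to -1.82 for beta and -0.028 to 2.43 for gamma.

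Between segments, alpha minus beta was -10.6 and past the threshold by covered length (adjusted exact p = 0.0313), 3.90 with 25 kb around the inner boundaries left out, and -2.02 to 0.337 without 1 library. Alpha minus gamma lost the threshold at z of at least 30 (-19.7) and by covered length (-8.62), and ran from -6.70 to -4.50 without 1 library. Beta minus gamma lost it at z of at least 10 (-7.19) and 30 (-7.51), turned to 1.94 by covered length, and ran from -5.66 to -3.33 without 1 library. The excess of the window over its length lost the threshold at z of at least 30 (0.343), turned to -0.352 against the flanks, and ran from 0.152 to 0.180 without 1 library. With 7 libraries the smallest exact p is higher, and these 3 differences kept their direction but passed the threshold in 2 of 8 such runs each. The 44 bins shared by all libraries were 12 at z of at least 10 and 0 at 30, by construction fewer, and 45 to 64 without 1 library.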

Other observations

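The 4 highest strong peaks outside the listed regions were found in conditioned replicate 2 and control replicate 4. In conditioned replicate 2 a single step at 37759642 in the gamma segment had a z score of 147.5, the highest of the window, while the other 7 libraries had peaks of 5.13 to 9.89 in the same 1 kb bin. Control replicate 4 had a z score of 95.2 at 37975093 and of 84.8 at 37994743, both near the downstream end of the gamma segment. At the first of these places conditioned replicate 4 also had a strong peak in the bin (45.0), and at the second no other library exceeded 26.9. In the beta segment control replicate 4 had 88.4 at 37609393, against at most 21.0 elsewhere. The next highest, 78.1 in control replicate 2 at 37403487, lies in a bin that 3 libraries carried. These places were picked for their height, and are given as values with no test.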
